A study of Saccharomyces cerevisiae with 25 samples.

Results

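Transcript levels were compared between a not2 null strain of budding yeast (Saccharomyces cerevisiae) and a wild-type strain, each measured 30 min after glucose depletion and in exponential phase. The quantity followed is the difference of responses, that is, not2 after depletion minus not2 in exponential phase, less the same difference in wild type. It rests on 8 of the 25 arrays of the study, 2 in each of the 4 groups, and was computed for all 5656 genes with a probe set annotated to a single gene. A strain deleted for CCR4, also with 2 arrays in each condition, is set against not2 further below. All strains grew in glucose-rich medium. Each culture sample is stated to have been made 2 times independently, so that the p-values rest on the spread between separate preparations. That spread is pooled for each gene over all 25 arrays, most of them of other strains. The strain background, the auxotrophic markers, the mating type and the extent of the deletion are not given in the labels. Values are on the log2 scale, as deposited.

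Not2, encoded by CDC36, is a core subunit of Ccr4-Not, a complex found throughout eukaryotes that removes poly(A) tails from mRNAs, takes part in ubiquitylation and was first described in yeast through its effects on transcription. When glucose runs out, yeast changes from fermentation to respiration of the ethanol it has made. Genes for respiration, storage carbohydrates and stress protection are induced in this shift, genes for making ribosomes are turned down, and growth slows. Ccr4-Not has been linked in yeast to stress-responsive transcription factors and to the signalling pathways that sense glucose.

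CDC36 read 3.81 and 3.24 after depletion and 3.47 and 3.01 in exponential phase in not2, against 8.17 and 8.42 after depletion and 8.09 and 8.02 in exponential phase in wild type. All 4 not2 arrays were below all 4 wild-type arrays, and close to the lower quartile of the probe sets, which lay between 3.51 and 3.75 on the 8 arrays. The difference, not2 minus wild type, was -4.77 after depletion (SE 0.32, limma adjusted p = 7.33e-09) and -4.82 in exponential phase (SE 0.32, adjusted p = 4.05e-09). The difference of responses of CDC36 was 0.05 (SE 0.45, adjusted p = 0.967). The 9 genes for subunits of the complex held 1 called gene, CAF130, at -1.42 (SE 0.41, adjusted p = 0.0406), whose call was kept in 2 of the 8 fits that leave out 1 array. The other 8 lay between -0.14 for POP2 and 1.54 for CDC39.

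The replicate arrays agreed to different degrees. Pearson's r between the 2 arrays of a group was 0.93 in not2 after depletion and 0.963 in not2 in exponential phase, against 0.99 in wild type after depletion and 0.979 in wild type in exponential phase. In not2 after depletion, 1227 of the 5656 genes differed by over 1 log2 unit between the 2 arrays, against 25 genes in wild type after depletion. The median difference between the 2 arrays was 0.567 in not2 after depletion and 0.202 in wild type after depletion. Since the fit takes 1 spread per gene for all groups, SEs and p-values that involve the not2 depletion arrays may be too small. The 2 not2 depletion arrays therefore stand apart from each other, and medians of gene lists that move by over 1.5 times when 1 of them is left out are given with that value. The wild-type arrays in exponential phase also differed, in genes that depletion induces: the median of the trehalose and glycogen genes was 6.03 on replicate 1 and 8.02 on replicate 2.

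Genes called in wild type mostly responded in the same direction in not2. In not2, 1092 genes (19.3%) rose and 1434 (25.4%) fell after depletion, and in wild type 1146 (20.3%) rose and 1059 (18.7%) fell (limma, Benjamini-Hochberg adjusted p under 0.05). Of the 2205 genes called in wild type, 2008 (91.1%) had a not2 response of the same sign. Across genes, which are not independent replicates and share the arrays and their normalization, the 2 responses had a Pearson's r of 0.78. Genes that rose in wild type had a median response of 1.11 in not2 and 1.52 in wild type, and genes that fell in wild type had medians of -1.46 in not2 and -1.36 in wild type. Both sets were picked by the wild-type response on these arrays, which by itself enlarges the wild-type medians and not those of not2.

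The response itself differed between the strains for 392 genes (6.93% of those tested). It was higher in not2 for 135 genes (2.39%) and lower for 257 (4.54%), the shares against which the gene lists below are to be read. The median over all genes was -0.15. The number depends on the arrays: it was 114 when only the 8 arrays were fitted, and between 117, without replicate 1 of wild type after depletion, and 780, without replicate 2 of not2 after depletion. For 98 genes, 38 higher and 60 lower, the call was kept in all 8 fits that leave out 1 array.

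Among the 257 genes with a lower response in not2, 118 rose in wild type, and 82 of these were not called in the not2 response, 20 fell in not2 and 16 rose. A further 107 were not called in the wild-type response, and 106 of them fell in not2, while the last 32 fell in both strains. Among the 135 genes with a higher response in not2, 53 fell in wild type, and 38 of these were not called in the not2 response, 7 rose in not2 and 8 fell. Another 61 were not called in the wild-type response, and 60 of them rose in not2, while 21 rose in both strains. The 2 responses were called in opposite directions for 27 of the 392 genes. Because the 2 responses are the terms of the difference that selected these genes, the counts describe it and are not further tests.

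**Figure D1:**
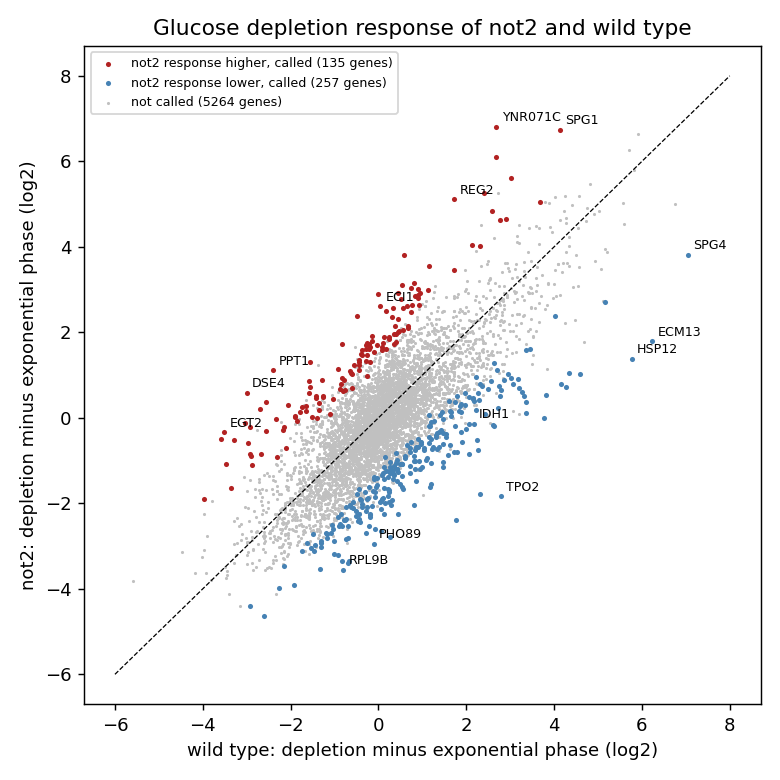
Response to glucose depletion of each of 5656 genes, as the mean log2 difference between depletion and exponential phase, in not2 (vertical axis) against wild type (horizontal axis). The dashed line marks equal responses; the 135 genes called with a higher not2 response lie above it, the 257 with a lower one below it, and some of the genes named in the text are labelled.

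The greatest rise in the difference of responses was that of YNR071C, a putative aldose 1-epimerase. It read 10.77 and 10.90 after depletion and 3.90 and 4.14 in exponential phase in not2, against 6.15 and 5.75 after depletion and 3.06 and 3.49 in exponential phase in wild type. The not2 depletion arrays were above all others, and the strains were close together before depletion. The gene rose in both strains, by 6.81 in not2 and 2.68 in wild type, and the responses differed by 4.13 (SE 0.64, adjusted p = 0.000975).

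RGI2, a protein of energy metabolism under respiratory growth, followed the same pattern, as did REG2, a regulatory subunit of the Glc7 phosphatase that acts on glucose repression. RGI2 read 9.81 and 9.23 after depletion and 3.39 and 3.45 in exponential phase in not2, against 6.07 and 6.21 after depletion and 3.65 and 3.29 in exponential phase in wild type. REG2 read 8.50 and 8.13 after depletion and 3.19 and 3.21 in exponential phase in not2, against 5.75 and 5.75 after depletion and 4.04 and 4.03 in exponential phase in wild type. Both genes had their highest 2 values on the not2 depletion arrays. The responses differed by 3.43 for RGI2 (SE 0.79, adjusted p = 0.0124, kept in 7 of the 8 fits) and by 3.40 for REG2 (SE 0.53, adjusted p = 0.000975, kept in all 8).

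AQY1, a water channel, and PMA2, a minor isoform of the plasma membrane proton pump, rose in not2 with no call in wild type. AQY1 read 6.47 and 8.01 after depletion and 3.54 and 3.35 in exponential phase in not2, against 5.23 and 5.53 after depletion and 4.83 and 4.77 in exponential phase in wild type. Its 2 not2 depletion arrays differed by more than the wild-type conditions did, yet both exceeded every other array, and the responses differed by 3.22 (SE 0.54, adjusted p = 0.00123). The difference for PMA2 was 2.90 (SE 0.68, adjusted p = 0.0141, kept in 6 of the 8 fits).

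Other leading genes fell in wild type and did not fall in not2. NCW2, a cell wall protein, read 10.30 and 10.38 after depletion and 10.39 and 10.54 in exponential phase in not2, against 5.45 and 5.66 after depletion and 9.06 and 8.13 in exponential phase in wild type. PIR1, an O-glycosylated cell wall protein, read 10.27 and 11.51 after depletion and 11.01 and 10.35 in exponential phase in not2, against 7.99 and 7.90 after depletion and 10.63 and 10.62 in exponential phase in wild type. For both, the wild-type depletion arrays were the lowest 2 of the 8. Between the strains the responses differed by 2.91 for NCW2 (SE 0.52, adjusted p = 0.00188) and by 2.89 for PIR1 (SE 0.45, adjusted p = 0.000975). HPT1, the hypoxanthine-guanine phosphoribosyltransferase of purine salvage, differed by 3.10 (SE 0.48, adjusted p = 0.000975), with responses of -0.49 in not2, which was not called, and -3.59 in wild type.

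For 2 of the leading genes the probe sets disagreed. PPT1, a protein phosphatase that acts on Hsp90, had a difference of 3.51 (SE 0.47, adjusted p = 0.000277) on a probe set of a shared kind and 0.09 (SE 0.52) on its other set. TLC1, the RNA of telomerase, had a difference of 2.93 (SE 0.43, adjusted p = 0.000628) on the brighter set and 0.12 (SE 0.67) on the other. Both differences therefore hold for 1 of the 2 probe sets of each gene.

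At the other end, the genes with the lowest difference of responses were mostly induced in wild type. TPO2, a polyamine exporter, read 7.23 and 7.50 after depletion and 9.40 and 9.0 in exponential phase in not2, against 7.94 and 7.63 after depletion and 4.35 and 5.65 in exponential phase in wild type. The strains were within 1 log2 unit of each other after depletion, and the not2 arrays were far above wild type before it. TPO2 fell by 1.83 in not2, rose by 2.79 in wild type, and the responses differed by -4.62 (SE 0.75, adjusted p = 0.00103), on a probe set whose name marks it as less specific.

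HSP12, a small membrane-associated stress protein, showed a similar pattern without a fall. It read 12.44 and 12.78 after depletion and 10.98 and 11.49 in exponential phase in not2, against 12.31 and 12.26 after depletion and 5.75 and 7.27 in exponential phase in wild type. The strains reached like levels after depletion and differed by 4.72 in exponential phase, where not2 was higher. Its difference of responses was -4.39 (SE 0.87, adjusted p = 0.0045). NCE103, a carbonic anhydrase, had 10.71 and 11.12 after depletion and 9.97 and 9.75 in exponential phase in not2, against 11.13 and 11.02 after depletion and 6.46 and 7.02 in exponential phase in wild type, with responses differing by -3.28 (SE 0.54, adjusted p = 0.00115). DPI8 was likewise higher in not2 in exponential phase, by 2.86, and not called between the strains after depletion, with a difference of responses of -3.54 (SE 0.60, adjusted p = 0.00129).

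Another set of genes rose in wild type and was not called in not2. GID10, a substrate receptor of the GID ubiquitin ligase, read 3.92 and 4.82 after depletion and 4.01 and 3.65 in exponential phase in not2, against 7.51 and 7.49 after depletion and 3.56 and 3.78 in exponential phase in wild type. NRE1 read 7.20 and 7.51 after depletion and 7.08 and 7.40 in exponential phase in not2, against 10.38 and 9.87 after depletion and 6.64 and 6.90 in exponential phase in wild type. In both cases the wild-type depletion arrays stood alone above the other 6. This gave differences of -3.28 for GID10 (SE 0.71, adjusted p = 0.0088) and -3.24 for NRE1 (SE 0.40, adjusted p = 0.000119). DAK2, a dihydroxyacetone kinase, differed by -3.57 (SE 0.72, adjusted p = 0.00486) and YHR033W by -3.77 (SE 0.63, adjusted p = 0.00123), although their not2 depletion arrays were over 1 log2 unit apart, at 5.74 and 8.05 for DAK2 and at 6.40 and 8.35 for YHR033W.

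GPP2, a glycerol-3-phosphate phosphatase of glycerol synthesis, crossed over between the strains. It read 5.28 and 5.90 after depletion and 7.44 and 7.31 in exponential phase in not2, against 8.16 and 7.81 after depletion and 5.32 and 5.99 in exponential phase in wild type. The not2 and wild-type values did not overlap in either condition, with not2 lower after depletion and higher in exponential phase. The gene fell in not2 by 1.78 on the log2 scale and rose in wild type by 2.32, a difference of -4.11 (SE 0.50, adjusted p = 0.000119). TDA6 crossed in the same way at low levels, with a difference of -4.16 (SE 0.67, adjusted p = 0.00103). ECM13 rose in both strains, by 1.79 in not2 and 6.24 in wild type, and differed by -4.45 (SE 0.48, adjusted p = 6.99e-05), and COQ21 differed by -3.36 (SE 0.58, adjusted p = 0.00157).

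**Figure D2:**
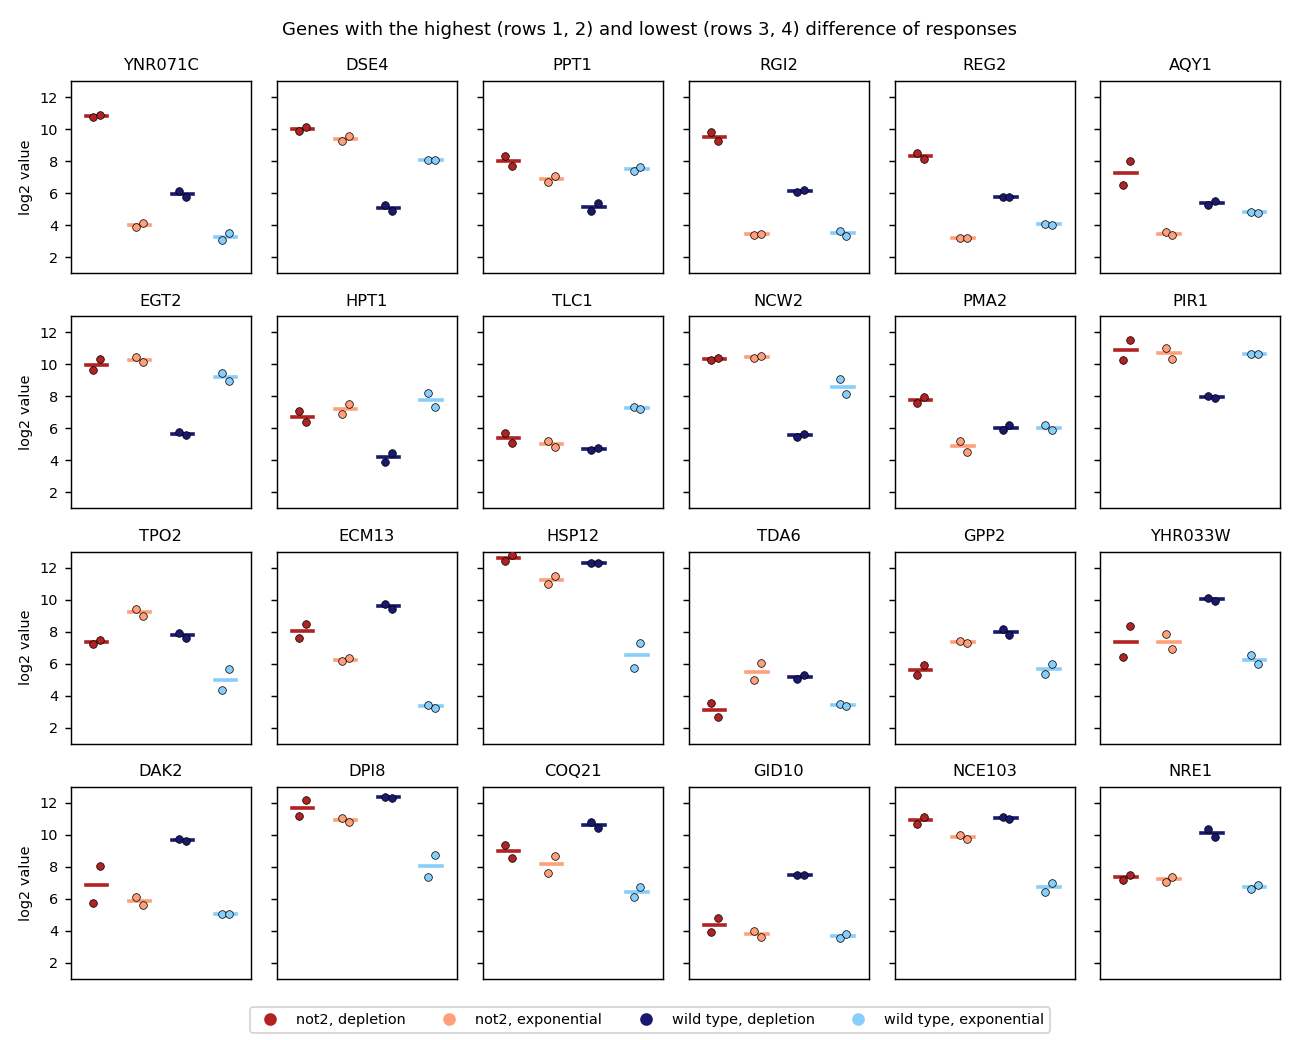
Log2 value on each array (points) and group mean (bars) of the 12 genes with the highest and the 12 with the lowest difference of responses among the called genes, in not2 after depletion, not2 in exponential phase, wild type after depletion and wild type in exponential phase, from left to right in each panel. YNR071C, RGI2 and REG2 have their highest values in not2 after depletion, while GID10 and NRE1 have theirs in wild type after depletion.

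Genes of daughter-cell separation gave the highest median of the 36 gene lists examined. They encode wall-degrading enzymes and related proteins with which the daughter parts from its mother after cytokinesis. Of 14 measured members, 6 had a higher response in not2 and none a lower one, against 2.39% and 4.54% of all genes, and the list median was 1.59, against -0.15 over all genes. In not2, 1 member fell after depletion and none rose, while in wild type 12 fell. After depletion 11 of the 14 were higher in not2 than in wild type, where 28.0% of all genes were called in either direction (794 higher and 792 lower). In exponential phase 7 were higher, against 15.5% of all genes. In RNA from a bulk culture, fewer cells of a kind cannot be told apart from less RNA per cell. The list median was between 1.24 and 1.94 in every alternative setting and every fit that leaves out 1 array.

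DSE4, an endo-glucanase of the daughter wall, read 9.85 and 10.11 after depletion and 9.24 and 9.55 in exponential phase in not2, against 5.24 and 4.90 after depletion and 8.08 and 8.05 in exponential phase in wild type. EGT2, a wall protein of early G1, read 9.63 and 10.31 after depletion and 10.48 and 10.12 in exponential phase in not2, against 5.76 and 5.57 after depletion and 9.43 and 8.95 in exponential phase in wild type. Both stayed high in not2 and were lowest on the wild-type depletion arrays, with no overlap. Their differences were 3.59 for DSE4 (SE 0.55, adjusted p = 0.000975) and 3.19 for EGT2 (SE 0.45, adjusted p = 0.00043).

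SUN4, a wall glucanase, read 9.50 and 9.61 after depletion and 10.10 and 10.18 in exponential phase in not2, against 7.46 and 6.90 after depletion and 10.37 and 9.91 in exponential phase in wild type. ASH1, the repressor of HO that is localised to daughter nuclei, read 10.25 and 10.34 after depletion and 9.42 and 9.73 in exponential phase in not2, against 7.48 and 7.09 after depletion and 8.86 and 8.83 in exponential phase in wild type. For SUN4 the strains overlapped in exponential phase and separated after depletion, whereas ASH1 was higher on every not2 array. The differences were 2.37 for SUN4 (SE 0.44, adjusted p = 0.00267) and 2.28 for ASH1 (SE 0.43, adjusted p = 0.00295), each kept in all 8 fits. DSE2 (2.01, SE 0.45, adjusted p = 0.0101) and the chitinase CTS1 (1.43, SE 0.36, adjusted p = 0.0205, kept in 2 of the 8 fits) completed the called members. The other 8 were not called and ranged from -1.51 for PST1 to 2.49 for DSE1 (SE 0.83, adjusted p = 0.072).

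Cell-cycle genes of G1 and S phase had a list median of 0.08, which ranged from -0.11 to 0.30 on leaving out 1 array, with 2 of 36 members called, both higher. CLN1 and CLN2, the G1 cyclins that start the cycle, fell in both strains. CLN1 read 6.20 and 6.56 after depletion and 7.38 and 7.59 in exponential phase in not2, against 3.36 and 3.58 after depletion and 6.21 and 6.49 in exponential phase in wild type, and its responses differed by 1.77 (SE 0.43, adjusted p = 0.0184). The difference for CLN2 was 1.4 (SE 0.41, adjusted p = 0.043), kept in 2 of the 8 fits. Of 30 genes of the cell wall and its integrity pathway, 2 were higher (PIR1 and the mannoprotein CWP1, 2.37, SE 0.46, adjusted p = 0.00377) and 1 lower, the chitin synthase CHS3 (-1.65, SE 0.40, adjusted p = 0.0183). None of 4 measured histone genes was called, with differences from -1.12 for HTB1 to 0.69 for HTZ1.

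Of 18 genes of fatty acid beta-oxidation and peroxisomes, 4 had a higher response in not2, against 2.39% of all genes, and none a lower one. The list median of 0.53 was 0.09 without the genes of low mean signal, 0.29 without replicate 2 of not2 in exponential phase and 0.30 without replicate 2 of not2 after depletion. After depletion 8 of the 18 were above wild type and none below, where 28.0% of all genes were called in either direction (794 higher and 792 lower). ECI1, an isomerase that prepares unsaturated fatty acids for oxidation, read 8.37 and 7.63 after depletion and 5.31 and 5.47 in exponential phase in not2, against 5.25 and 5.15 after depletion and 5.01 and 5.30 in exponential phase in wild type. PXA1 and PXA2, which form the peroxisomal transporter of long-chain fatty acids, also rose in not2. PXA1 read 5.92 and 5.26 after depletion and 2.39 and 2.97 in exponential phase in not2, against 3.21 and 3.19 after depletion and 2.54 and 2.96 in exponential phase in wild type.

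For ECI1 and PXA1 the not2 depletion arrays were over 2 log2 units above wild type after depletion, and the other groups lay close together. For PXA1 those other groups lay below the lower quartile of the probe sets, 3.51 to 3.75, where a small change could hardly be measured. The responses differed by 2.57 for ECI1 (SE 0.41, adjusted p = 0.000991), by 2.47 for PXA1 (SE 0.44, adjusted p = 0.00181) and by 1.50 for PXA2 (SE 0.31, adjusted p = 0.00595), each kept in all 8 fits. POT1, the thiolase of the pathway, rose by 5.05 in not2 and 3.67 in wild type, a difference of 1.38 (SE 0.40, adjusted p = 0.0422) that was kept in 3 of the 8 fits.

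Respiratory genes had a lower median response in not2. In not2 40 of 42 measured genes of oxidative phosphorylation rose, and in wild type all 42 did, with median responses of 1.89 in not2 and 2.49 in wild type. The list's median difference of responses was -0.61, and it was -1.01 without replicate 1 and -0.38 without replicate 2 of not2 after depletion. Against 4.54% of all genes, 3 of the 42 were lower: the ATP synthase subunits ATP17 (-1.92, SE 0.52, adjusted p = 0.0308) and ATP18 (-1.27, SE 0.38, adjusted p = 0.048), each kept in 2 of the 8 fits, and the external NADH dehydrogenase NDE1 (-1.37, SE 0.34, adjusted p = 0.0187, kept in 5).

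In the TCA cycle, which oxidises acetyl-CoA, 9 of 15 genes rose in not2 and 13 rose in wild type. The median difference was -0.77 and 4 members were lower, against 4.54% of all genes. IDH1 and IDH2 encode both subunits of NAD-dependent isocitrate dehydrogenase. IDH1 read 8.75 and 9.48 after depletion and 9.19 and 9.31 in exponential phase in not2, against 10.48 and 10.09 after depletion and 8.11 and 8.11 in exponential phase in wild type. IDH2 read 10.86 and 11.09 after depletion and 11.34 and 11.49 in exponential phase in not2, against 11.73 and 11.64 after depletion and 10.26 and 10.50 in exponential phase in wild type. Not2 was below wild type after depletion and above it in exponential phase for both genes, without overlap. The responses differed by -2.31 for IDH1 (SE 0.38, adjusted p = 0.00108) and by -1.74 for IDH2 (SE 0.28, adjusted p = 0.00103), each kept in all 8 fits. FUM1, the fumarase, differed by -1.68 (SE 0.42, adjusted p = 0.0195, kept in 3) and CIT1, the citrate synthase, by -1.29 (SE 0.38, adjusted p = 0.0447, kept in 2).

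Glucose-repressed genes of gluconeogenesis, the glyoxylate cycle and related carbon use rose in both strains, 25 of 33 in not2 and 26 in wild type. Beside REG2, 1 member was called: ADR1, the activator of many glucose-repressed genes, with a lower response in not2 (-2.07, SE 0.55, adjusted p = 0.0288, kept in 3 of the 8 fits). Among 16 hexose transporters and glucose sensors the glucose sensor RGT2 was called (-2.24, SE 0.65, adjusted p = 0.0421), and the call was lost in each fit that left out 1 array. PDE2, a cAMP phosphodiesterase, was the 1 called gene of 27 in glucose signalling and repression (-1.78, SE 0.41, adjusted p = 0.0124, kept in 5 of the 8 fits). None of 22 genes of glycolysis and ethanol fermentation was called. The hexokinase HXK1 had the lowest value there, -2.24 (SE 0.80, adjusted p = 0.0925), and its wild-type arrays in exponential phase were far apart, at 6.64 and 9.62.

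The general stress genes, which the Msn2 and Msn4 activators induce, rose in nearly full number in both strains, 48 of 51 in not2 and 49 in wild type. Their median response was 3.0 in not2 and 3.43 in wild type. The median difference of responses was -0.11, and it rested on the wild-type arrays in exponential phase, being 0.36 without replicate 1 and -0.57 without replicate 2. It was -0.36 without replicate 2 of not2 in exponential phase, -0.29 without replicate 1 of not2 after depletion and 0.03 under quantile normalization. Called members were HSP12, NCE103 and SPG4 in the lower direction and SPG1 in the higher. SPG1 and SPG4 are both needed for survival at high temperature in stationary phase, yet they behaved differently. SPG4 read 12.30 and 12.37 after depletion and 7.83 and 9.20 in exponential phase in not2, against 10.22 and 10.01 after depletion and 2.67 and 3.48 in exponential phase in wild type. SPG1 read 10.10 and 9.68 after depletion and 3.14 and 3.16 in exponential phase in not2, against 7.41 and 7.26 after depletion and 3.40 and 3.0 in exponential phase in wild type.

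Both were higher in not2 than in wild type after depletion, whereas in exponential phase SPG4 was already higher in not2 and SPG1 was not. The responses differed by -3.22 for SPG4 (SE 0.82, adjusted p = 0.0231, kept in 4 of the 8 fits) and by 2.61 for SPG1 (SE 0.41, adjusted p = 0.000991, kept in all 8). Of 21 trehalose and glycogen genes 2 were higher, against 2.39% of all genes. Their list median of 0.57 changed sign, to -0.10, without replicate 2 of wild type in exponential phase. GSY1, a glycogen synthase, differed by 2.34 (SE 0.60, adjusted p = 0.0246, kept in 2 of the 8 fits), with wild-type exponential values of 7.33 and 9.27, and PIG2, a phosphatase subunit of glycogen control, by 1.73 (SE 0.51, adjusted p = 0.0468, kept in 1). None of 27 heat shock chaperone genes was called, and 1 of 30 oxidative stress genes was, the peroxiredoxin PRX1 (-1.65, SE 0.43, adjusted p = 0.0246, kept in 4).

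Genes that build ribosomes and translate mRNA fell in both strains. All 80 measured cytosolic ribosomal protein genes fell in not2 and 74 fell in wild type, with median responses of -2.43 in not2 and -2.01 in wild type. The response was lower in not2 for 11 of the 80, and none was higher, against 4.54% and 2.39% of all genes. The list's median difference of -0.32 rested on the not2 depletion arrays: it was -0.75 without replicate 1 and 0.06 without replicate 2. RPL16B read 8.53 and 8.39 after depletion and 11.48 and 11.88 in exponential phase in not2, against 10.76 and 10.52 after depletion and 11.53 and 11.61 in exponential phase in wild type. RPP2B, an acidic stalk protein, read 9.82 and 9.14 after depletion and 11.74 and 11.58 in exponential phase in not2, against 11.77 and 11.92 after depletion and 12.17 and 12.11 in exponential phase in wild type.

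For both genes the not2 depletion arrays were below the other 6 by over 1 log2 unit. The responses differed by -2.28 for RPL16B (SE 0.31, adjusted p = 0.000277), by -1.89 for RPP2B (SE 0.35, adjusted p = 0.00267), by -2.03 for RPL13A (SE 0.41, adjusted p = 0.00467) and by -2.76 for RPL9B (SE 0.50, adjusted p = 0.00206), each kept in all 8 fits. RPL9B, RPL16B and RPL13A have close paralogs in yeast, whose signal the probes may share, and the RPL9B set is of a less specific kind.

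Ribosome biogenesis genes fell in not2 for 120 of 123 members and in wild type for 106, with medians of -2.31 in not2 and -1.57 in wild type. Of the 123, 6 had a lower response in not2 and none a higher one, a share close to the 4.54% of all genes called lower. The median difference was -0.65, and between -1.05, without replicate 1 of not2 in exponential phase, and -0.23, without replicate 2 of wild type in exponential phase. It was -0.24 without replicate 2 of not2 in exponential phase. RRP3, a helicase of small subunit assembly, read 4.80 and 4.49 after depletion and 7.32 and 8.65 in exponential phase in not2, against 5.90 and 5.39 after depletion and 6.39 and 6.23 in exponential phase in wild type. Not2 was higher in exponential phase, the strains were not called apart after depletion (-1.0), and the responses differed by -2.68 (SE 0.58, adjusted p = 0.0088, kept in 6 of the 8 fits). NSA2 (-2.19, SE 0.50, adjusted p = 0.0124), UTP15 (-2.52, SE 0.71, adjusted p = 0.0382) and FCF1 (-2.0, SE 0.55, adjusted p = 0.0337) were also called, in 5, 3 and 3 of the 8 fits.

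The RNA polymerase I and III subunits had a median of -0.99, which was -0.61 without replicate 2 of not2 in exponential phase, and 3 of 19 were lower, RPA49 (-1.97), RPA135 (-1.72) and RPC40 (-1.62), with adjusted p-values between 0.0367 and 0.0463 and calls kept in at most 3 of the 8 fits. Of 31 translation factors 2 were lower, GCD1 (-1.60, adjusted p = 0.0468, kept in 1 of the 8 fits) and TIF5 (-1.54, adjusted p = 0.0447, kept in 2), with a list median of -0.29 that was -0.06 without replicate 2 of wild type in exponential phase. The share of all genes called lower was 4.54%. None of the 71 measured mitochondrial ribosomal protein genes was called. Their median difference was 0.00, between -0.32 without replicate 1 and 0.41 without replicate 2 of not2 after depletion.

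**Figure D3:**
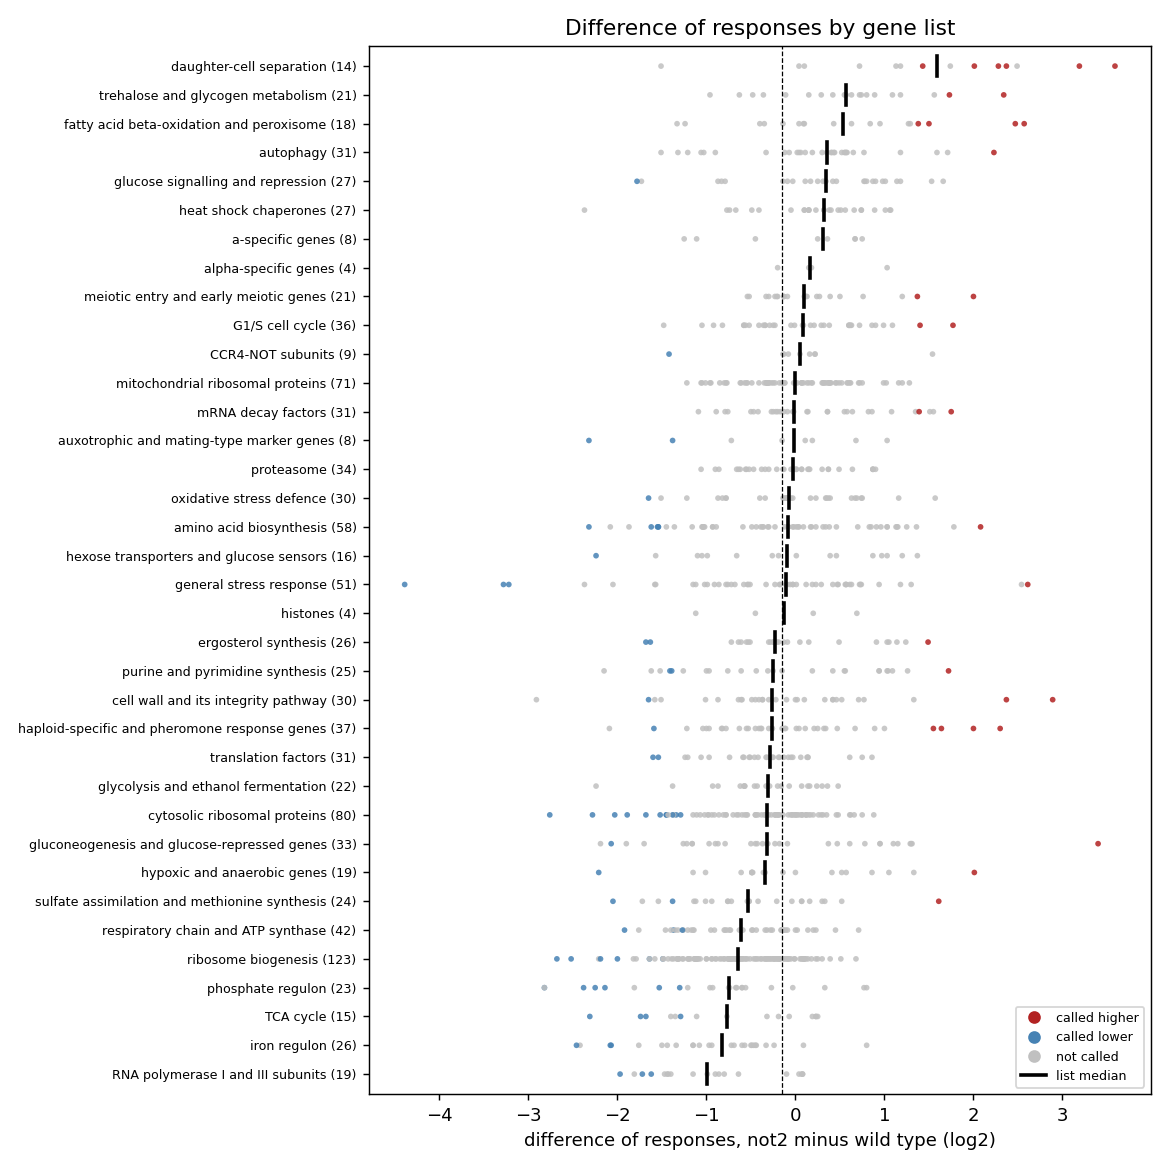
Difference of responses, not2 minus wild type, of every measured member of the 36 gene lists (points), with each list's median (black bar) and the number of measured members in brackets; the dashed line is the median of all 5656 genes, -0.15. Daughter-cell separation genes have the highest median, 1.59, and it was also the highest on leaving out any 1 array. Which list has the lowest median (here RNA polymerase I and III subunits, -0.99) depends on the arrays, and without replicate 2 of not2 after depletion it is the iron regulon, -1.22.

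The phosphate regulon, which Pho4 turns on when phosphate is scarce, gave 6 lower genes of 23 and none higher, against 4.54% of all genes called lower, with a median of -0.75. After depletion 5 of its genes were higher in not2 than in wild type and 3 lower, where 28.0% of all genes were called in either direction. In exponential phase 12 were higher and 1 lower, against 15.5% and 7.07% of all genes. PHO89, a sodium-coupled phosphate transporter, read 5.35 and 7.29 after depletion and 9.11 and 9.41 in exponential phase in not2, against 4.28 and 5.09 after depletion and 4.81 and 4.79 in exponential phase in wild type. PHM6 read 2.83 and 3.01 after depletion and 4.56 and 5.79 in exponential phase in not2, against 2.68 and 2.96 after depletion and 2.76 and 2.64 in exponential phase in wild type. Both were higher in not2 than in wild type in exponential phase and fell in not2 after depletion, while wild type stayed low. The exponential values of PHM6 in not2 lay on either side of the array medians, 5.20 to 5.37. Its other values lay below the lower quartile of the probe sets, 3.51 to 3.75. The differences were -2.82 for PHO89 (SE 0.61, adjusted p = 0.00841) and -2.38 for PHM6 (SE 0.51, adjusted p = 0.00825), each kept in 7 of the 8 fits. The acid phosphatase PHO5 differed by -2.14 (SE 0.50, adjusted p = 0.0134, kept in 5) and the nucleotidase PHM8 by -2.25 (SE 0.68, adjusted p = 0.0488, kept in 1).

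Iron regulon genes had a median of -0.83, with 24 of 26 values below 0 and 3 called, all lower, against 4.54% of all genes. The median was -0.46 without replicate 1 and -1.22 without replicate 2 of not2 after depletion. ARN2, a siderophore transporter, read 6.54 and 6.78 after depletion and 7.48 and 7.59 in exponential phase in not2, against 6.80 and 7.47 after depletion and 6.05 and 5.06 in exponential phase in wild type. It fell in not2 and rose in wild type, a difference of -2.46 (SE 0.44, adjusted p = 0.00192, kept in all 8 fits). FET4, a low-affinity iron transporter, differed by -2.08 (SE 0.53, adjusted p = 0.0222) and ARN1, another siderophore transporter, by -2.07 (SE 0.51, adjusted p = 0.0195), each kept in 4.

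Biosynthetic pathways held called genes of both signs. Among 58 amino acid genes 5 were lower and 1 higher, against 4.54% and 2.39% of all genes. LYS9, of lysine synthesis, read 7.80 and 7.42 after depletion and 9.42 and 9.59 in exponential phase in not2, against 5.74 and 5.77 after depletion and 9.80 and 9.66 in exponential phase in wild type. It fell in both strains, less in not2, a difference of 2.08 (SE 0.36, adjusted p = 0.00142). THR4 (-1.62) and ARG8 (-1.55) were among the lower ones, each kept in 3 of the 8 fits. HIS3 differed by -2.32 (SE 0.38, adjusted p = 0.00103) on 1 probe set and by -0.49 (SE 0.37) on the other, and LEU2 by -1.38 (SE 0.37, adjusted p = 0.0298) on the set used and by 0.88 and 0.98 on its other sets. Both are common auxotrophic markers, and whether either strain carries marker alleles of them is not given in the labels.

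Sulfate and methionine genes gave MET6 higher (1.61, kept in 5 of the 8 fits) and MMP1 (-2.05) and MET22 (-1.38) lower of 24, both kept in 1. Nucleotide synthesis gave ADE17 higher (1.72, kept in 4) and ADE8 (-1.41, kept in 2) and URA5 (-1.39, kept in 3) lower of 25. Ergosterol synthesis gave ERG24 higher (1.49, kept in 1) and ERG26 (-1.68, kept in 3) and MVD1 (-1.63, kept in 6) lower of 26. In the hypoxic list of 19, AAC3, an ADP/ATP carrier isoform, was higher (2.01, SE 0.47, adjusted p = 0.0135) and HEM13, of haem synthesis, lower (-2.21, SE 0.48, adjusted p = 0.0088). HEM13 read 4.53 and 5.95 after depletion and 7.39 and 7.01 in exponential phase in not2, against 8.12 and 7.73 after depletion and 7.70 and 7.66 in exponential phase in wild type, so that not2 alone fell.

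Of 31 autophagy genes 1 was called, ATG14, a subunit of the autophagy-specific lipid kinase, which read 6.17 and 5.45 after depletion and 3.35 and 3.12 in exponential phase in not2, against 3.35 and 3.43 after depletion and 2.81 and 3.27 in exponential phase in wild type. It rose in not2 and was not called in wild type, a difference of 2.23 (SE 0.39, adjusted p = 0.00168, kept in all 8 fits). Its values outside the not2 depletion arrays lay below the lower quartile of the probe sets, 3.51 to 3.75, where a small change in wild type could hardly be measured. Among 31 mRNA decay factors the exonuclease XRN1 (1.75, SE 0.47, adjusted p = 0.0301) and the decapping activator EDC3 (1.39, SE 0.41, adjusted p = 0.0468) were higher, each kept in 2 of the 8 fits. Both fell in wild type and were not called in not2. None of 34 proteasome genes was called.

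Markers of a cells differed between the strains in both conditions, and no mating-type marker was called in the difference of responses. All 8 genes of the a-specific list were lower in not2 than in wild type. Their median differences were -3.59 after depletion and -3.49 in exponential phase. Over all genes, 792 of 5656 were lower in not2 after depletion and 7.07% in exponential phase. The list includes AXL1 (-2.14 after depletion and -2.49 in exponential phase), which is haploid-specific and not confined to a cells. None of the 4 alpha-specific genes was called in either condition, with medians of -0.26 after depletion and -0.49 in exponential phase. STE2, the alpha-factor receptor, read 5.10 and 5.22 after depletion and 4.23 and 4.35 in exponential phase in not2, against 8.37 and 8.87 after depletion and 8.63 and 8.21 in exponential phase in wild type. The differences of responses in these lists, none of them called, ranged from -1.25 for ASG7 (SE 0.48) to 1.03 for STE3 (SE 0.39). The part of the mating-type markers in the altered response was not tested.

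Of 37 haploid-specific and pheromone response genes, 4 were higher and 1 lower, against 2.39% and 4.54% of all genes. Between the strains, 14 of the 37 were lower in not2 in exponential phase and 4 higher, against 7.07% and 15.5% of all genes. After depletion 14 were lower and 3 higher, where 28.0% of all genes were called in either direction. HO, the mating-type switching endonuclease, read 2.83 and 2.24 after depletion and 2.79 and 2.35 in exponential phase in not2, against 2.91 and 3.44 after depletion and 5.82 and 5.21 in exponential phase in wild type. It was low in not2 throughout and fell in wild type after depletion, a difference of 2.30 (SE 0.43, adjusted p = 0.00268). The not2 values and the wild-type depletion values lay below the lower quartile of the probe sets, between 3.51 and 3.75 on the 8 arrays. A fall of HO in not2 could therefore hardly be measured. RME1, a repressor of meiosis, read 7.32 and 7.34 after depletion and 4.54 and 4.98 in exponential phase in not2, against 8.17 and 8.22 after depletion and 7.82 and 7.44 in exponential phase in wild type, a difference of 2.0 (SE 0.49, adjusted p = 0.0178, kept in 4 of the 8 fits). TEC1, a transcription factor of filamentous growth, differed by 1.64 (SE 0.38, adjusted p = 0.0144, kept in 5) and PRM4 by -1.59 (SE 0.46, adjusted p = 0.041, kept in 2). Both RME1 and TEC1 were lower in not2 in exponential phase and not called between the strains after depletion. IME4, an mRNA methyltransferase subunit that promotes meiosis, was the other called gene of 21 in meiotic entry (1.37, SE 0.37, adjusted p = 0.0308, kept in 2).

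The difference lay in either condition. Of the 257 genes with a lower response in not2, 115 were lower in not2 after depletion with no call in exponential phase, as GID10 and NRE1 were. A further 97 were higher in not2 in exponential phase with no call after depletion, as HSP12, NCE103 and TPO2 were, and 24 were higher in exponential phase and lower after depletion, as GPP2 and IDH1 were. Of the 135 genes with a higher response, 88 were higher in not2 after depletion with no call in exponential phase, as ECI1, PXA1 and RGI2 were, and 24 were lower in exponential phase with no call after depletion, as HO, TEC1 and AAC3 were. Another 12, DSE4 and EGT2 among them, were higher in not2 in both conditions. Since these 2 differences are the terms of the difference of responses, the counts describe where it lies and are not further tests.

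**Figure D4:**
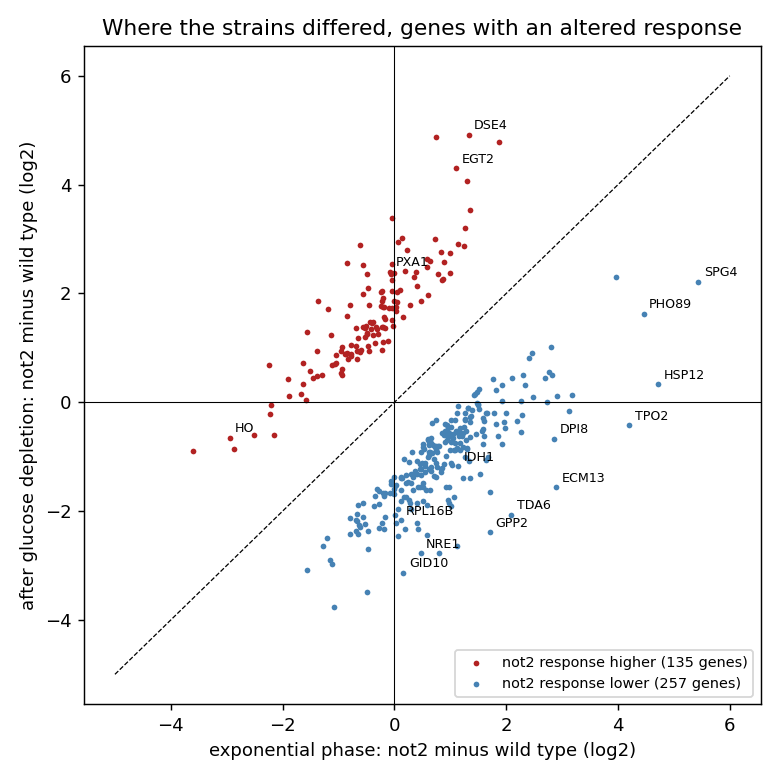
The 392 genes with a called difference of responses, by the difference between not2 and wild type after glucose depletion (vertical axis) and in exponential phase (horizontal axis), in log2 units. Genes with a higher not2 response lie above the dashed line of equal differences and genes with a lower one below it; HSP12 and TPO2 differ in exponential phase, GID10 and NRE1 after depletion.

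The deletion of CCR4, which encodes a deadenylase of the same complex, was profiled in both conditions as well, with 2 arrays each. The response of not2 was higher than that of ccr4 for 626 genes (11.1%) and lower for 1305 (23.1%), and the median over all genes was -0.27. This comparison uses the same 4 not2 arrays as the one with wild type, so the values are set side by side. The marker gene TRP1 read 7.83 and 7.94 after depletion and 7.43 and 6.73 in exponential phase in ccr4. In not2 it read 2.61 and 2.15 after depletion and 2.11 and 2.09 in exponential phase, and wild type did not exceed 3.14. Whether strain differences other than the deletions contribute was not tested. Ribosome biogenesis genes had array medians of 4.69 and 4.35 after depletion and 6.53 and 7.27 in exponential phase in not2, against 6.24 and 6.35 after depletion and 5.98 and 6.13 in exponential phase in ccr4. The not2 medians were lower after depletion and the ccr4 medians were not, and 111 of the 123 genes had a lower response in not2 than in ccr4, with a list median of -2.51. Wild type had medians of 4.78 and 4.84 after depletion and 6.9 and 6.1 in exponential phase. It thus fell as not2 did, and ccr4 was the strain that stood apart for these genes.

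Glucose-repressed carbon genes showed the reverse, with 19 of 33 higher in the not2 response than in the ccr4 response and a median of 1.70, as did general stress genes, with 20 of 51 higher, 2 lower and a median of 1.15. The median response of the carbon genes was 2.34 in not2 and 2.84 in wild type. That of the stress genes was 3.0 in not2 and 3.43 in wild type, so not2 exceeded ccr4 but not wild type in these lists. Daughter-cell separation genes had array medians of 9.43 and 9.51 after depletion and 9.33 and 9.64 in exponential phase in not2, against 6.84 and 6.74 after depletion and 8.80 and 8.98 in exponential phase in ccr4, with 7 of 14 higher in the not2 response and a median of 1.32. Wild type had medians of 6.65 and 6.30 after depletion and 8.47 and 8.31 in exponential phase. The level after depletion in ccr4 was thus near that of wild type for these genes and not near that of not2.

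For single genes, the not2 response exceeded the ccr4 response by 5.91 for YNR071C, 4.43 for REG2, 3.36 for DSE4 and 2.64 for ECI1, and fell short of it, with differences of -2.60 for GPP2 and -1.45 for IDH1, all called. The differences from ccr4 were not called for HSP12 (-1.35, SE 0.87), GID10 (-0.13), NRE1 (-0.65) and HO (-0.07). For HO this does not mean like levels. It read 5.31 and 5.54 after depletion and 5.07 and 5.7 in exponential phase in ccr4, against values of at most 2.83 in not2, where a fall could hardly be measured.

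By kind of transcript, 381 of 5486 protein-coding genes were called, against 6.93% of all genes. The others were 8 of 57 snoRNAs (3 higher and 5 lower), 1 of 91 tRNAs, 1 of 4 snRNAs and the telomerase RNA described above.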

How the data were processed

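Per the labels' protocols, acid phenol served to extract total RNA, and biotin-labelled material was hybridised to Affymetrix arrays. The authors deposited 1 table of log2 values, with 25 arrays and 9275 probe sets. How they normalized it is not given in the sources used here, and base 2 was inferred from the range, 1.36 to 13.94. The 8 arrays had medians between 5.20 and 5.37, so the values were used as they stand. Each array holds 1 sample, so the number of arrays limits the precision.

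Genes were assigned to probe sets from the annotation of the platform, with symbols updated to the R64 reference. Of them, 6504 carried 1 gene, 328 several and 2443 had none here. For the 315 genes with several sets, the brightest on average was used. This left 5656 genes, 295 of them on probe sets whose names mark a less specific kind (16 of the called ones).

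Means of the 14 groups were fitted to all 25 arrays with limma 3.58.1 (lmFit, then eBayes with a trend, 11 residual and 9.03 prior degrees of freedom) in R 4.3.3, with Benjamini-Hochberg adjustment over all genes and calls at 0.05. The fit was tested on simulated data. Figures were drawn with matplotlib 3.10.9 and tables made with pandas 2.3.3 and numpy 2.4.6 in Python 3.11.15.

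The comparison and the 36 gene lists (1056 measured genes) were chosen with earlier results of these data known, so their counts are descriptions. Named by rule were the 9 subunit genes, the 12 highest and 12 lowest called genes, up to 4 called members a list (otherwise at most 2 as values), and the mating-type and marker genes, 130 in all. DSE2, CTS1, PST1 and DSE1 were added after their values were seen. Alternatives were quantile normalization, no dim genes, only the arrays of the compared strains, no trend, the mean of the probe sets, a replicate block and leaving out each array.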

Additional observations from a re-analysis of the deposited data

Results flagged for a closer look

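The responses of not2 and wild type to glucose depletion were tested against each other directly, and they differed for 392 genes. The named genes among them are listed here with that difference in log2 units, not2 response minus wild-type response.

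The 12 highest differences were YNR071C 4.13, DSE4 3.59, PPT1 3.51, RGI2 3.43, REG2 3.40, AQY1 3.22, EGT2 3.19, HPT1 3.10, TLC1 2.93, NCW2 2.91, PMA2 2.90 and PIR1 2.89. Next came SPG1 2.61, ECI1 2.57, PXA1 2.47, SUN4 2.37, CWP1 2.37, GSY1 2.34, HO 2.30, ASH1 2.28, ATG14 2.23, LYS9 2.08, AAC3 2.01 and RME1 2.0. The remaining ones above 0 were CLN1 1.77, XRN1 1.75, PIG2 1.73, ADE17 1.72, TEC1 1.64, MET6 1.61, PXA2 1.50, ERG24 1.49, CLN2 1.4, EDC3 1.39, POT1 1.38 and IME4 1.37.

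The lowest differences were TPO2 -4.62, ECM13 -4.45, HSP12 -4.39, TDA6 -4.16, GPP2 -4.11, YHR033W -3.77, DAK2 -3.57, DPI8 -3.54, COQ21 -3.36, GID10 -3.28, NCE103 -3.28 and NRE1 -3.24. They were followed by SPG4 -3.22, PHO89 -2.82, RPL9B -2.76, RRP3 -2.68, UTP15 -2.52, ARN2 -2.46, PHM6 -2.38, HIS3 -2.32, IDH1 -2.31, RPL16B -2.28, PHM8 -2.25 and RGT2 -2.24. Closer to 0 lay HEM13 -2.21, NSA2 -2.19, PHO5 -2.14, FET4 -2.08, ADR1 -2.07, ARN1 -2.07, MMP1 -2.05, RPL13A -2.03, FCF1 -2.0, RPA49 -1.97, ATP17 -1.92 and RPP2B -1.89, then PDE2 -1.78, IDH2 -1.74, RPA135 -1.72, FUM1 -1.68, ERG26 -1.68, PRX1 -1.65, CHS3 -1.65, MVD1 -1.63, RPC40 -1.62, THR4 -1.62, GCD1 -1.60 and PRM4 -1.59, and last ARG8 -1.55, TIF5 -1.54, CAF130 -1.42, ADE8 -1.41, URA5 -1.39, MET22 -1.38, LEU2 -1.38, NDE1 -1.37, CIT1 -1.29 and ATP18 -1.27.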

How the results depend on the processing

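The number of genes with an altered response was within 1.5 times of 392 under quantile normalization, without the genes of mean below 4.81, without the intensity trend, with the mean of the probe sets and with the replicate block, and it was 114 when only the 8 arrays of not2 and wild type were fitted. Leaving out 1 array at a time gave 117 to 780 genes. It was 189 without not2 exponential replicate 2, 250 without wild-type exponential replicate 1, 151 without wild-type exponential replicate 2, 117 and 173 without wild-type depletion replicates 1 and 2, and 780 without not2 depletion replicate 2. The not2 response gave 1984 to 2660 genes, the wild-type response 1464 to 1742 (1464 without exponential replicate 1), and the not2 response against the ccr4 response 1232 to 2187 (1232 without ccr4 depletion replicate 2). The difference between not2 and wild type gave 808 to 1604 genes after depletion (939 and 808 without wild-type replicates 1 and 2) and 401 to 1156 in exponential phase (401 without not2 replicate 2, 452 and 708 without wild-type replicates 1 and 2, and 823 with only the compared strains' arrays). The fits on fewer arrays have fewer degrees of freedom, and the fit on the 8 arrays also takes its spread from not2 and wild type alone. Which property of a left-out array moved a count was not tested. Of the 94 named genes called, 40 kept the call on leaving out any 1 array, 48 lost it with only the 8 arrays, 7 under quantile normalization, 11 with the replicate block, 2 without the trend and 1 with the mean of the probe sets, where LEU2 turned to 0.16 because its probe sets disagree. The replicate numbers did not pair the samples. Correlations of same-numbered deviations between groups ran from -0.451 to 0.109, and the replicate block gave 311 genes. A crossed pairing, added after seeing the data, gave 428. Precision is limited by 2 arrays a group, with a median SE of 0.46 for the difference of responses.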
